A study of Mus musculus with 16 samples.

Results

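The methionine cycle enzymes and the Bhmt genes were followed in mouse embryonic stem (ES) cells leaving naive pluripotency. The members were selected by symbol and are 9 of the 27179 genes in the count table: Mat2a, Mat2b, Ahcy, Mtr, Mtrr, Bhmt, Bhmt2, Cbs and Amd1. They were chosen with these data in view, because Bhmt2 fell to 0 counts in cells from 2i/LIF by 40 h, so values at that point are described and not tested for any member. Naive pluripotency is the state of the early epiblast, and cells can be held in it by leukaemia inhibitory factor (LIF) together with 2i, a pair of inhibitors of GSK3 (CHIR99021, 3 uM) and MEK (PD0325901, 1 uM).

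The 16 RNA sequencing libraries formed 8 groups of 2 replicates. One set of cells was kept in 2i/LIF, a serum-free mix of DMEM/F-12 and Neurobasal with N-2 and B-27 supplements. The other was kept in serum/LIF+2i, which has a knockout DMEM base and 10% fetal bovine serum. Both had been adapted from serum/LIF, and both maintenance media held LIF, 2i and 2 mM glutamine. Cells collected at 0 h were the controls, and the others were collected 12, 24 or 40 h after a wash and a change to medium that lacked serum, 2i and LIF. For cells from 2i/LIF this was their own base medium, whereas the serum/LIF+2i cells received glutamine-free DMEM mixed with Neurobasal, with the same supplements and 2 mM glutamine. Loss of serum and a change of base medium are therefore part of the exit in serum/LIF+2i only and cannot be told apart from the maintenance medium. The cell line is not given in the sources used here, and nothing says whether replicates were separate cultures, so p-values measure only the spread between these libraries, which may be technical.

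The methionine cycle regenerates the methyl donor of the cell. Methionine is joined to adenosine to give S-adenosylmethionine (SAM), methyltransferases turn SAM into S-adenosylhomocysteine, and hydrolysis of the latter leaves homocysteine. Homocysteine is either methylated back to methionine, with a methyl group from folate or from betaine, or committed to cysteine through transsulfuration. SAM can also be decarboxylated for polyamine synthesis, and mouse ES cells are known for their high need of methionine and SAM.

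Total counts per library ran from 5931381 to 11142744, and a floor of 3 counts corresponded to 0.517 CPM (counts scaled to the TMM-adjusted library total) in the shallowest library. Replicates correlated across genes at r 0.991 to 0.995 in log2 CPM, and their counts differed by more than sampling noise (chi-square per degree of freedom 1.39 to 5.42). Of the 8 ES cell markers, 0 were at the floor at 0 h, and their summed level was 5460 to 5490 CPM in 2i/LIF and 5810 to 5890 CPM in serum/LIF+2i. It was 1010 to 1020 CPM at 40 h in both, while 5 formative markers went from 126 to 137 CPM to 2420 to 2710 CPM in cells from 2i/LIF and from 158 to 170 CPM to 1870 to 1970 CPM in cells from serum/LIF+2i. Single markers did not all follow these sums. Dnmt3b made up most of the formative sum at 40 h, at 2220 and 1730 CPM. Otx2 from serum/LIF+2i went from 92.7 CPM at 24 h to 10.3 CPM at 40 h. From 2i/LIF, Pou5f1 was 641 CPM at 0 h and 635 CPM at 40 h, and Dppa4 was 48.5 and 99.2 CPM. Fewer cells of a type and less RNA per cell cannot be told apart in such bulk samples.

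Bhmt and Bhmt2 are the enzymes that remake methionine from homocysteine without folate. Bhmt takes its methyl group from betaine, and Bhmt2 uses S-methylmethionine. Both were expressed at a low level in naive cells and were at or near 0 counts by 40 h of exit in both media. In cells from 2i/LIF, the replicate libraries held 141 and 153 Bhmt2 counts at 0 h, 28 and 24 at 12 h, 4 and 8 at 24 h, and 0 and 0 at 40 h. Each later time lay below the one before it, with no overlap between groups. These are the values that chose the gene, and they correspond to 24.3 and 23.2 CPM at 0 h, 3.84 and 3.21 CPM at 12 h, and 0.555 and 1.22 CPM at 24 h. At 24 h the level was 27.3-fold lower than at 0 h, and at 40 h it was at least 60.7-fold lower, set against the floor of 3 counts per library.

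In cells from serum/LIF+2i, Bhmt2 had 92 and 86 counts at 0 h, 1 and 5 at 12 h, 5 and 0 at 24 h, and 0 and 0 at 40 h. The fall was therefore mostly complete by the first time point, when 2.55% of the 0 h level was left, against 14.8% in cells from 2i/LIF. The 12 h level was 36.6-fold lower than at 0 h (95% interval 16.5 to 101), the 24 h level 49.3-fold lower (20.7 to 154) and the 40 h level at least 47.6-fold lower. Such intervals are exact, are based on summed counts and cover counting error only. All 3 values share the same 0 h libraries. The values at 12 and 24 h in this medium did not order themselves, since 1 library at 24 h held as many counts as the higher library at 12 h.

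Between media, Bhmt2 was 13.5 and 12.6 CPM in serum/LIF+2i at 0 h, and both values lay below those of 2i/LIF. The same held at 12 h, with 1 and 5 counts against 28 and 24. At 24 h the 5 counts of 1 serum/LIF+2i library made 0.553 CPM, next to the 0.555 CPM of the lower 2i/LIF library. No test is given for Bhmt2, because its 2i/LIF values chose it and because it passed the filter on low counts only through groups in which it was high.

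Bhmt followed the same course at a lower level. In cells from 2i/LIF it had 84 and 106 counts at 0 h, 19 and 11 at 12 h, 4 and 2 at 24 h, and 0 and 0 at 40 h. In cells from serum/LIF+2i the counts were 27 and 28, then 1 and 2, then 1 and 0, then 0 and 1. The 0 h values did not overlap any later value in either medium. From 2i/LIF, the Bhmt change was -2.91 on the log2 scale at 12 h, and the level was 35.2-fold lower at 24 h (95% interval 15.9 to 97.2) and at least 39-fold lower at 40 h. In the serum/LIF+2i set it was 22.6-fold lower at 12 h (7.34 to 113), 76.2-fold lower at 24 h (13.1 to 3060) and 88.6-fold lower at 40 h (15.3 to 3560). These are given with no test, since Bhmt too passed the filter only through groups in which it was high, those of 0 h among them.

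Before exit, Bhmt already differed between the media, at 14.5 and 16.1 CPM in 2i/LIF and 3.97 and 4.11 CPM in serum/LIF+2i. This was a log2 fold change (serum/LIF+2i minus 2i/LIF) of -1.92 ± 0.24 (SE). The difference between the exits of the media at 12 h did not pass that test (-1.48 ± 0.79, adjusted p 0.28). Per length, Bhmt2 stood above Bhmt by 1.55 ± 0.165 times (SD, n = 2) in 2i/LIF at 0 h and by 3.21 ± 0.235 times in serum/LIF+2i.

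**Figure D1:**
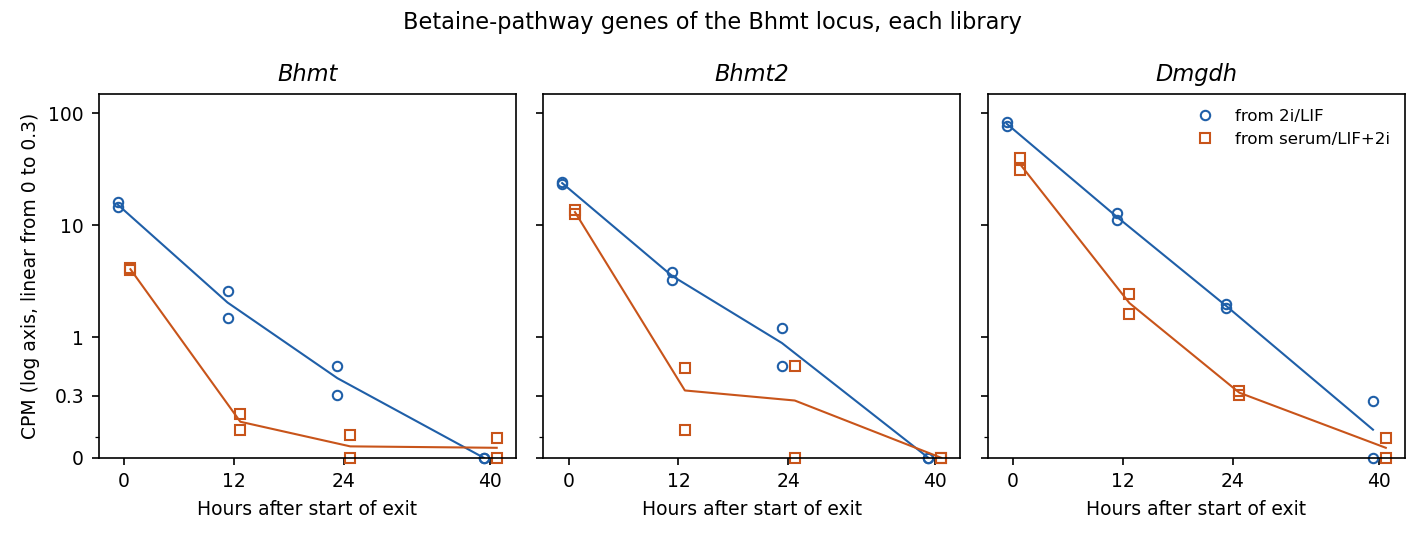
Level of Bhmt, Bhmt2 and Dmgdh in each library, in CPM on an axis that is logarithmic above 0.3 and linear below, against hours of exit. Circles are cells from 2i/LIF, squares cells from serum/LIF+2i, and lines join group means; the 12 h squares lie below the 12 h circles for each gene, and all 3 genes are at or near 0 at 40 h.

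Bhmt and Bhmt2 lie side by side on chromosome 13 with another gene of betaine breakdown, Dmgdh, the mitochondrial dehydrogenase of dimethylglycine, which is the product of the Bhmt reaction. In RefSeq (GRCm38.p6), Bhmt is at chr13:93616891-93637758 and Bhmt2 at chr13:93656097-93674302, both on the minus strand and 18338 bases apart. Dmgdh is at chr13:93674436-93752823 on the plus strand, so Bhmt2 and Dmgdh are transcribed away from each other across 133 bases. That whole stretch is printed because it is shared by the upstream sides of both genes, and a site upstream of Bhmt is printed beside it. Both read 5′ to 3′ on the strand of Bhmt and Bhmt2, with capitals marking a GC box in the first and a binding element of estrogen-related receptors in the second.

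Bhmt2-Dmgdh intergenic, chr13:93674303-93674435: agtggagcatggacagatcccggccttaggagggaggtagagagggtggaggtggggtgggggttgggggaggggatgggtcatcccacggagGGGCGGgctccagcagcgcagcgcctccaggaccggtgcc
Bhmt upstream site, chr13:93637814-93637843: tgaccccagaTCAAGGTCAgaggcctgcta

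The stretch between Bhmt2 and Dmgdh had 69.9% G and C and held 6 CpG. The windows from 250 bases before to 50 bases after each RefSeq start held 26 CpG for Bhmt2 and 25 for Dmgdh, more than 83.1% and 81.6% of 32851 such mouse windows. The Bhmt window held 8, close to the median of 7. Searching both strands, the GC box (GGGCGG) was in 35.7% of all windows, in that of Dmgdh and in those of all members except Bhmt. The receptor element (TCAAGGTCA) was in 0.423% of windows and, among the members, only in that of Bhmt, where it begins at -75 from the RefSeq start and overlaps no other motif searched. GENCODE vM21 places the Bhmt start further upstream, at position 93637961, so the element would lie inside that transcript. The element was singled out after the sequence was read, and a match of letters shows no binding.

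Dmgdh moved with its neighbours. In cells from 2i/LIF it stood at 80.6 ± 5.26 CPM (SD, n = 2) at 0 h, 11.9 ± 1.17 at 12 h and 1.89 ± 0.121 at 24 h, with 2 counts in all at 40 h. The serum/LIF+2i cells had 35.5 ± 6.43 CPM at 0 h and 2.01 ± 0.591 at 12 h, with 6 counts at 24 h and 1 at 40 h. The groups at 0 and 12 h did not overlap in either medium. The 12 h changes were -2.76 ± 0.12 from 2i/LIF (adjusted p 8.2e-43) and -4.17 ± 0.19 from serum/LIF+2i (adjusted p 5.7e-40), and they differed from each other by -1.41 ± 0.28 (adjusted p 0.00012). At 12 h, 14.8% of the 0 h level was left in cells from 2i/LIF, the same share as for Bhmt2, and 5.67% in cells from serum/LIF+2i. At 40 h Dmgdh was 620-fold lower than at 0 h in cells from 2i/LIF (95% interval 171 to 5130) and 780-fold lower in cells from serum/LIF+2i (139 to 30900).

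The next gene before Bhmt in RefSeq, the noncoding Gm31977, is not analysed here. The nearest protein-coding genes on the outer sides, named after their values were seen, did not reach 0 counts. Jmy, an actin nucleation factor, ranged over group means of 42.9 to 60.6 CPM and at 40 h changed by -0.44 ± 0.08 from 2i/LIF (adjusted p 2.4e-06) and 0.03 ± 0.08 from serum/LIF+2i (adjusted p 0.77). Arsb, a lysosomal sulfatase, was low throughout and fell early in both media. It went from 5.42 to 1.63 CPM at 12 h from 2i/LIF (-1.73 ± 0.36, adjusted p 2.1e-05) and from 2.06 to 0.387 CPM from serum/LIF+2i (-2.26 ± 0.57, adjusted p 0.00043). At 40 h it was still lower from 2i/LIF, at 1.52 CPM (-1.84 ± 0.36, adjusted p 3.2e-06), but above its 0 h level from serum/LIF+2i, at 3.56 CPM (0.79 ± 0.34, adjusted p 0.035).

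Among all genes tested, the group means of log2 CPM most like those of Bhmt2 over the 8 groups belonged to Cyp4f13 (Pearson r 0.9943), Catsperd (0.9926) and Mylip (0.9926). For Bhmt they belonged to Tnni1 (0.9935), Flrt2 (0.9933) and Slmap (0.9912). The correlation describes the order and spacing of the groups and not the size of the change. Cyp4f13 went only from 17.6 CPM to 7.15 CPM over 40 h from 2i/LIF, whereas Tnni1 went from 53.9 to 0.392 CPM. The 8 means share libraries and scaling between genes, and Bhmt and Bhmt2 themselves correlated at r 0.99.

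Some markers of another cell type fell as the Bhmt genes did, and others did not. The summed level of 7 trophoblast markers was 83.2 to 83.4 CPM in 2i/LIF and 71.2 to 77.3 CPM in serum/LIF+2i at 0 h, and 6.39 to 10.1 CPM at 40 h over both media. Most of this was Tfap2c, a transcription factor that naive ES cells also express, at 62.8 CPM in 2i/LIF and 55.4 CPM in serum/LIF+2i at 0 h. The defining markers Elf5 and Hand1 had at most 1 count per library at 0 h, whereas Cdx2 stood at 11.1 and 7.93 CPM. Cdx2 was lower at 12 h, at 0.201 CPM from 2i/LIF and 0.0532 CPM from serum/LIF+2i. No test is given for it, because it passed the filter only through the 0 h groups. Krt7, a keratin of simple epithelia, went from 4.8 to 0.338 CPM at 12 h from 2i/LIF. From serum/LIF+2i it was at 0.808 CPM at 0 h, 0.0676 at 12 h and 1.46 at 40 h. No test is given for Krt7 either, since few counts were left at 12 h. Eomes went the other way at 12 h, from 3.95 to 6.15 CPM from 2i/LIF and from 6.61 to 11.1 CPM from serum/LIF+2i. So did Gata3, from 0.648 to 0.949 CPM and from 3.45 to 5.3 CPM. The part of such cells in the fall of Bhmt and Bhmt2 was not tested.

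Methionine synthase, encoded by Mtr, performs the folate-dependent and vitamin B12-dependent remethylation of homocysteine, and Mtrr keeps its cofactor reduced. Mtr fell during exit, and at 40 h Mtrr stood close to its 0 h level in cells from serum/LIF+2i. In cells from 2i/LIF, Mtr was at 153 and 148 CPM at 0 h, 144 and 134 at 12 h, 111 and 107 at 24 h, and 87.0 and 88.2 at 40 h. In cells from serum/LIF+2i the values were 160 and 148 CPM, then 117 and 122, then 114 and 116, then 84.0 and 84.0. The libraries at 40 h were below all earlier ones in both media. The change from 2i/LIF was -0.11 ± 0.05 at 12 h (adjusted p 0.086), -0.46 ± 0.06 at 24 h (adjusted p 3.2e-12) and, untested, -0.78 at 40 h. From serum/LIF+2i it was -0.36 ± 0.05, -0.42 ± 0.05 and -0.87 ± 0.05, with adjusted p of 4.1e-09, 8.5e-12 and 2.6e-30. Without replicate 1 of the 12 h group, the 12 h fall from 2i/LIF passed as well (-0.16, adjusted p 0.043).

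Mtrr was at 56.7 and 59.5 CPM in 2i/LIF at 0 h and at 79.5 and 74.6 CPM in serum/LIF+2i, a log2 difference of 0.40 ± 0.08 (adjusted p 6.2e-06). It was the one member with a higher level in the serum medium before exit that passed the test. From serum/LIF+2i it fell to 58.8 and 56.5 CPM at 12 h (-0.42 ± 0.07, adjusted p 2.5e-07), stood at 58.4 and 64.5 CPM at 24 h (-0.32 ± 0.07, adjusted p 2.3e-05) and at 75.2 and 78.3 CPM at 40 h (-0.01 ± 0.07, adjusted p 0.93). The 40 h libraries thus overlapped those of 0 h. From 2i/LIF no tested change passed: -0.18 ± 0.08 at 12 h (adjusted p 0.065) and -0.03 ± 0.08 at 24 h (adjusted p 0.77). At 40 h from 2i/LIF it was at 68.3 and 66.3 CPM, above both 0 h libraries, an untested change of 0.21. The 12 h change from 2i/LIF passed without replicate 2 of that group (-0.26, adjusted p 0.035). Both genes thus fell at 12 and 24 h from serum/LIF+2i, and there the ratio of Mtrr to Mtr per length stayed between 0.587 and 0.649 in the group means up to 24 h. By 40 h it had gone from 0.470 ± 0.0275 to 0.933 ± 0.0277 in cells from 2i/LIF and from 0.610 ± 0.00628 to 1.11 ± 0.0324 in cells from serum/LIF+2i (SD, n = 2).

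Mat2a encodes the catalytic subunit of the methionine adenosyltransferase that makes SAM outside the adult liver, and Mat2b encodes its regulatory subunit. Mat2a had the highest level per length of the 9 members in every group, and it rose on exit. The libraries from 2i/LIF had 476 and 472 CPM at 0 h, 657 and 619 at 12 h, 721 and 707 at 24 h, and 580 and 541 at 40 h. Those from serum/LIF+2i had 418 and 414 CPM, then 577 and 566, then 618 and 588, then 529 and 557. All later libraries exceeded those of 0 h, and the 24 h mean was the peak in both media. The tested changes were 0.43 ± 0.04 at 12 h (adjusted p 3.9e-19) and 0.59 ± 0.04 at 24 h (adjusted p 4.4e-29) from 2i/LIF. In the serum/LIF+2i set they were 0.46, 0.54 and 0.38, each ± 0.04, with adjusted p of 4.5e-21, 3.9e-26 and 3.9e-17.

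The level of Mat2a was lower in the serum set at 0 h (-0.19 ± 0.04, adjusted p 3.6e-05), 12 h (-0.16 ± 0.04, adjusted p 0.00033) and 24 h (-0.24 ± 0.04, adjusted p 2e-08), and at 40 h the values overlapped (-0.05 ± 0.04, adjusted p 0.38). The 12 h difference lost its call without replicate 1 of the 12 h group from 2i/LIF (-0.11, adjusted p 0.062).

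Mat2b varied less, over group means of 115 to 162 CPM. From 2i/LIF it rose by 0.14 ± 0.05 at 12 h (adjusted p 0.033) and by 0.24 ± 0.05 at 24 h (adjusted p 6.7e-05). From serum/LIF+2i it rose by 0.16 ± 0.05 at 12 h (adjusted p 0.0077), was at 0.02 ± 0.05 at 24 h (adjusted p 0.77) and fell by 0.25 ± 0.05 at 40 h (adjusted p 1.1e-05). Both 12 h calls were lost when 1 library was left out: from 2i/LIF without replicate 1 of 0 h (adjusted p 0.31) or without replicate 1 (0.16) or 2 (0.051) of 12 h, and from serum/LIF+2i without replicate 1 of 12 h (0.17). DESeq2 did not call the 12 h change from 2i/LIF (adjusted p 0.12). The ratio of Mat2a to Mat2b per length went from 2.79 ± 0.15 to 3.27 ± 0.0268 over 40 h in cells from 2i/LIF and from 2.45 ± 0.0383 to 3.82 ± 0.171 in cells from serum/LIF+2i (SD, n = 2).

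Ahcy, the hydrolase that removes S-adenosylhomocysteine, an inhibitor of methyltransferases, dipped early and was nearly back by 40 h. In cells from 2i/LIF it was at 43.3 and 44.5 CPM at 0 h, 31.8 and 33.6 at 12 h, 38.6 and 35.7 at 24 h, and 43.8 and 40.5 at 40 h. In cells from serum/LIF+2i the values were 38.4 and 40.0 CPM, then 26.4 and 29.7, then 31.1 and 27.3, then 34.8 and 37.5. Libraries at 12 h lay below those of 0 h in both media. The 12 h falls were -0.43 ± 0.10 (adjusted p 0.00014) and -0.47 ± 0.10 (adjusted p 2.2e-05), and from serum/LIF+2i the 24 h value still passed (-0.43 ± 0.10, adjusted p 5.6e-05) while the 40 h value did not (-0.12 ± 0.09, adjusted p 0.24). From 2i/LIF the 24 h fall (-0.24 ± 0.10, adjusted p 0.028) was lost without either 0 h library (adjusted p 0.052 and 0.13), without replicate 2 of 24 h (0.18) and with DESeq2 (0.11).

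Cbs, the first enzyme of transsulfuration, which withdraws homocysteine from the cycle, had the largest and steadiest fall outside the Bhmt genes. The 2i/LIF set had 126 and 116 CPM at 0 h, 75.9 and 72.7 at 12 h, 38.9 and 43.0 at 24 h, and 30.4 and 27.0 at 40 h. The serum/LIF+2i set had 98.7 and 99.3 CPM, then 59.9 and 60.7, then 41.5 and 42.3, then 22.7 and 23.1. No library overlapped those of an earlier time. The changes were -0.70 ± 0.07 (adjusted p 1.3e-17) and -1.57 ± 0.08 (adjusted p 1.7e-39) at 12 and 24 h from 2i/LIF, with an untested -2.07 at 40 h. They were -0.72 ± 0.07, -1.24 ± 0.07 and -2.11 ± 0.08 from serum/LIF+2i, with adjusted p of 2.4e-17, 7.6e-33 and 8.1e-51. The gene most like Mtr over the 8 groups was Necap1, an adaptor of endocytosis (r 0.9981). Cbs and Mtr correlated with each other at r 0.98 over the 8 group means.

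Amd1, which decarboxylates SAM for polyamine synthesis, changed little. In cells from 2i/LIF it ranged from 61.1 to 76.6 CPM over all 8 libraries, with changes of -0.03 ± 0.08 at 12 h (adjusted p 0.74) and 0.13 ± 0.07 at 24 h (adjusted p 0.13). Without replicate 1 of 24 h the latter passed (0.21, adjusted p 0.047). At 40 h from 2i/LIF it was at 76.2 and 74.7 CPM, above the 64.8 and 67.9 CPM of 0 h, an untested change of 0.18. In cells from serum/LIF+2i it went from 71.0 and 72.1 CPM at 0 h to 62.7 and 62.0 at 12 h, 58.5 and 57.9 at 24 h, and 68.1 and 71.1 at 40 h. The falls at 12 h (-0.20 ± 0.07, adjusted p 0.014) and 24 h (-0.30 ± 0.07, adjusted p 0.00013) passed, and the 40 h value did not (-0.04 ± 0.07, adjusted p 0.60). The 12 h fall was lost without replicate 2 of its 0 h group (adjusted p 0.086) or 12 h group (0.08) and with DESeq2 (0.095).

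**Figure D2:**
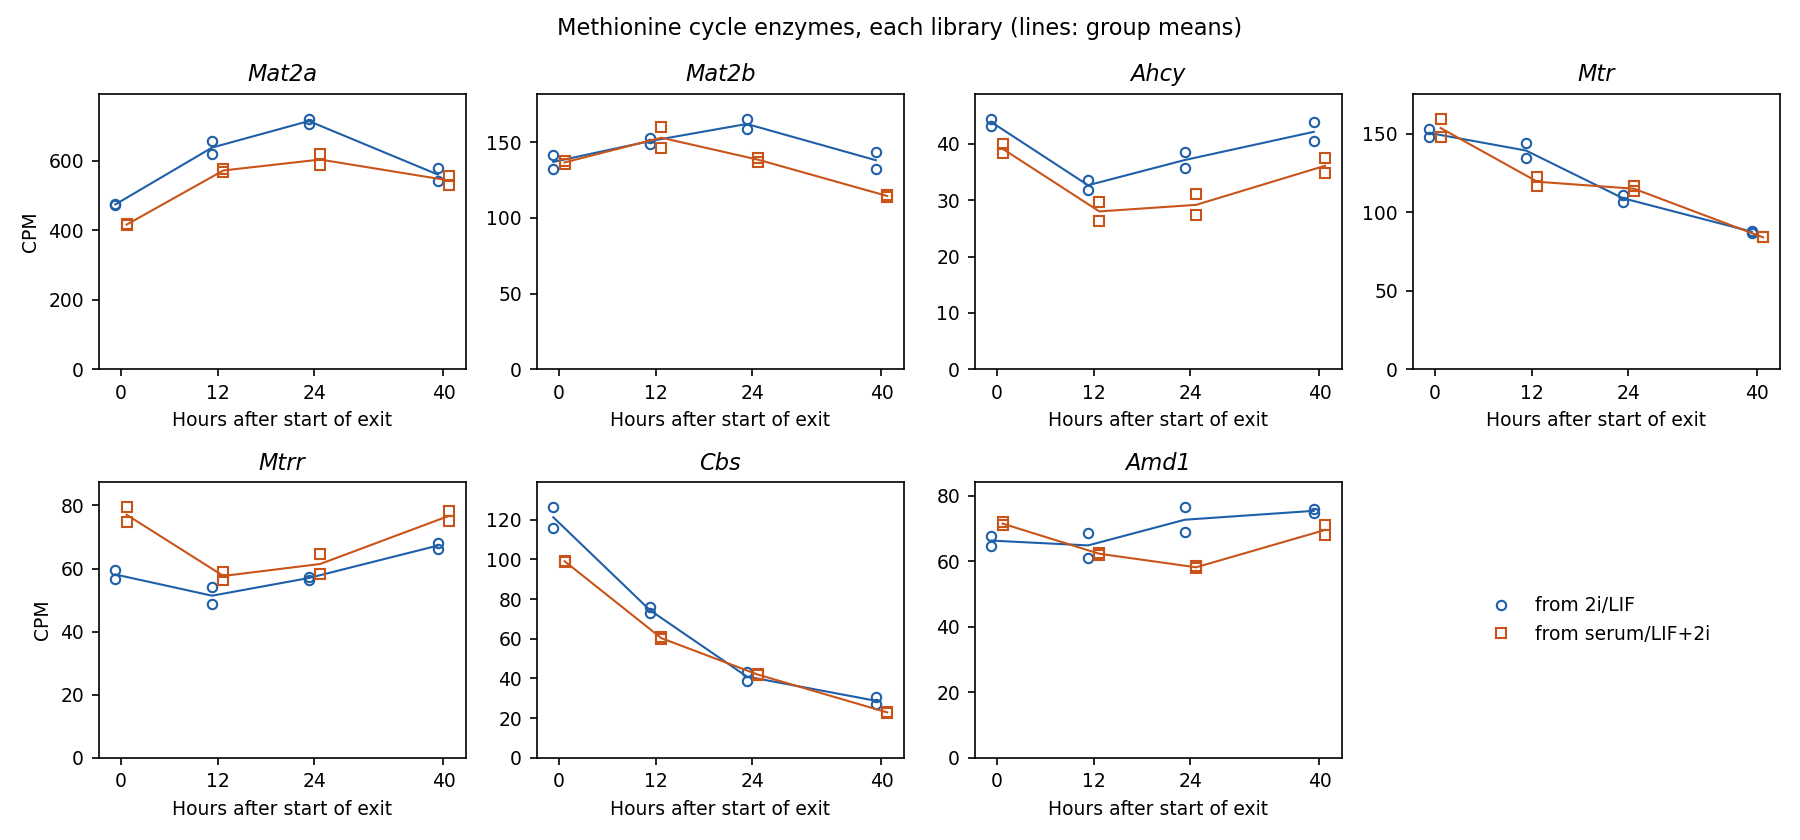
CPM of the 7 members other than Bhmt and Bhmt2 in each library, on linear axes from 0, against hours of exit. Circles are cells from 2i/LIF, squares cells from serum/LIF+2i, and lines join group means; Cbs and Mtr descend to 40 h in both media, and Mat2a is above its 0 h level at every later time.

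Several of these counts are uncertain because near-identical copies exist. Of all 50-base words in the longest GENCODE vM21 coding transcript, 87.6% for Amd1, 77.0% for Ahcy and 59.6% for Bhmt also occur in transcripts of other genes. The main copies are Amd2 for Amd1 (86.1%), Gm4737 for Ahcy (74.1%) and Gm5096 for Bhmt (56.9%), and how reads of such copies were counted is not given in the sources used here. The share was 6.53% for Mat2a, 4.96% for Bhmt2, 1.36% for Cbs and 0 for Mat2b, Mtr, Mtrr and Dmgdh, and Bhmt and Bhmt2 shared 0.41% of the Bhmt words. Amd2 had its own counts, and per length Amd1 exceeded it by 6.46 to 7.99 times in the group means. In GENCODE, Mat2a, Ahcy, Bhmt and Dmgdh each overlap a gene on the opposite strand, and whether the counting used strand is not given in the sources used here.

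Per length, the 9 members spanned a wide range. Over all libraries the mean level was 202 RPKM (CPM per kilobase of the deposited gene length) for Mat2a, 62.6 for Mat2b, 26.7 for Mtr, 25.3 for Cbs, 21.1 for Amd1, 17.2 for Mtrr, 14.2 for Ahcy, 2.5 for Bhmt2 and 1.33 for Bhmt. The order changed with exit mainly through Cbs. In 2i/LIF before exit, Cbs followed Mat2b at 50.1 ± 3.00 RPKM, above Mtr at 33.5 ± 0.802. After 40 h it was at 11.9 ± 0.992, below Ahcy at 16.6 ± 0.929. In serum/LIF+2i the corresponding levels of Cbs were 40.9 ± 0.161 and 9.47 ± 0.135. Amd1 and Mtrr were neighbours at 40 h from serum/LIF+2i, at 21.7 ± 0.672 and 20.8 ± 0.601 RPKM, and differed by less than the sum of their SDs.

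The calls were counted over the 8 members other than Bhmt2. They are at an adjusted p under 0.05 in edgeR's quasi-likelihood test. At 12 h from 2i/LIF, 2 rose (Mat2a and Mat2b) and 3 fell (Ahcy, Bhmt and Cbs), beside 21.0% of all genes tested called higher and 23.7% lower. At 24 h from 2i/LIF, 2 rose and 4 fell (the same with Mtr), beside 29.2% and 29.6%. In the serum/LIF+2i set, 2 rose (Mat2a and Mat2b) and 6 fell at 12 h, so that 0 of the 8 were left uncalled, beside 25.3% and 25.9% of all genes. At 24 h 1 rose (Mat2a) and 6 fell, beside 32.4% and 32.0%, and at 40 h 1 rose (Mat2a) and 4 fell (Mat2b, Mtr, Bhmt and Cbs), beside 35.3% and 35.3%. Bhmt is in these counts although it passed the filter only through groups in which it was high, so its falls are no support for the others. Without it the split of the 7 others was 2 up and 2 down at 12 h and 2 up and 3 down at 24 h from 2i/LIF. From serum/LIF+2i it was 2 up and 5 down at 12 h, 1 up and 5 down at 24 h, and 1 up and 3 down at 40 h. The medians of these 7 log2 fold changes were -0.11 and -0.03 from 2i/LIF at 12 and 24 h, and -0.36, -0.32 and -0.12 from serum/LIF+2i at 12, 24 and 40 h, where the medians of all genes were between 0 and 0.01. With a minimum absolute log2 fold change of 1 only 1 or 2 members were called in any exit comparison, and Bhmt was among them each time. Of all 14288 genes, that setting called 831 and 1768 at 12 and 24 h from 2i/LIF. From serum/LIF+2i it called 1083, 2203 and 3114 at 12, 24 and 40 h.

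**Figure D3:**
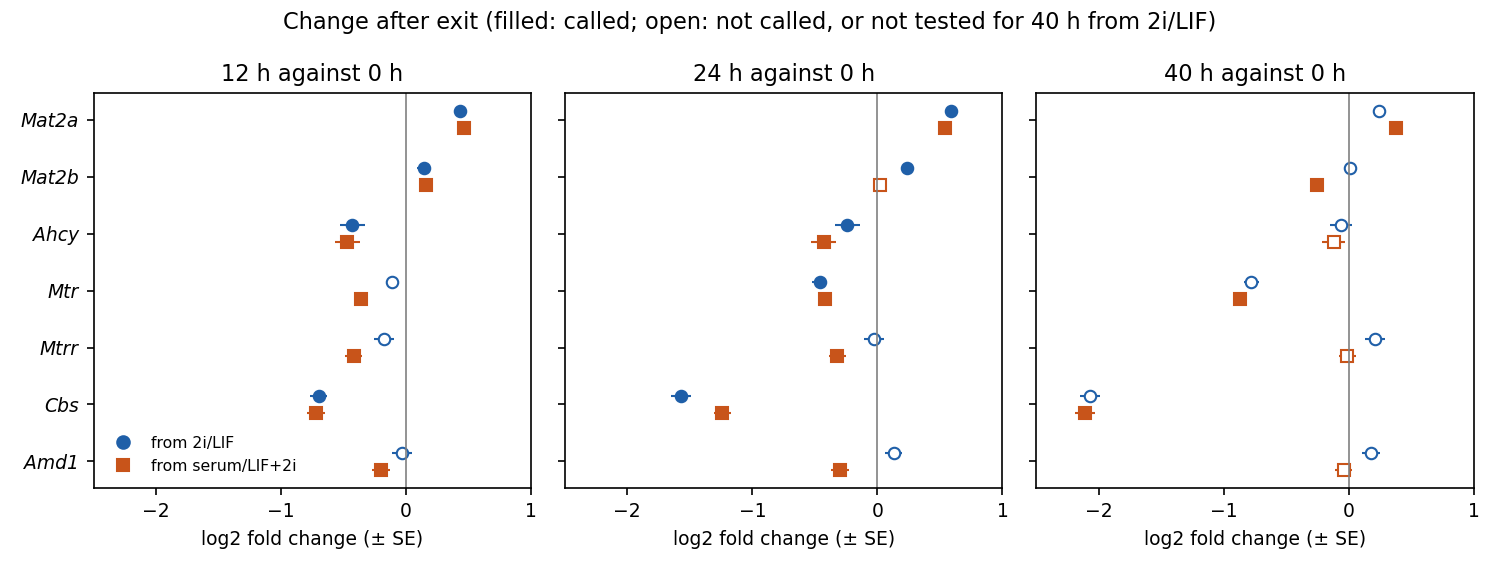
Log2 fold change (± SE) against 0 h of the 7 members other than Bhmt and Bhmt2, at 12, 24 and 40 h, for cells from 2i/LIF (circles) and serum/LIF+2i (squares). Filled points were called at an adjusted p under 0.05, and the 40 h points from 2i/LIF are open because they were not tested; Cbs lies farthest to the left in each panel.

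Between the media, most members were lower in the serum set where they differed. At 0 h, 3 of 8 were lower (Mat2a, Bhmt and Cbs) and 1 higher (Mtrr), beside 18.4% and 14.6% of all genes. At 12 h, 4 were lower (Mat2a, Mtr, Bhmt and Cbs) and 0 higher, beside 15.5% and 14.8%. At 24 h, 4 were lower (Mat2a, Mat2b, Ahcy and Amd1) and 0 higher, beside 17.0% and 14.1%. At 40 h, 3 were lower (Mat2b, Ahcy and Cbs) and 1 higher (Mtrr), beside 13.4% and 13.9%. Bhmt is in these counts with the limit given above for its falls. Without it, 2 of 7 were lower at 0 h and 3 at 12 h. The medians of the 7 were -0.01, -0.16, -0.23 and -0.12, where those of all genes were -0.01 to 0.01.

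The Cbs level was lower in the serum set at 0 h (-0.29 ± 0.06, adjusted p 0.00012), 12 h (-0.30 ± 0.07, adjusted p 0.00037) and 40 h (-0.33 ± 0.10, adjusted p 0.0065), with 0.04 ± 0.09 at 24 h (adjusted p 0.79). Mat2b was lower at 24 h (-0.23 ± 0.05, adjusted p 0.00017) and 40 h (-0.27 ± 0.05, adjusted p 1.2e-05). Amd1 was lower at 24 h (-0.32 ± 0.07, adjusted p 0.00013), and Mtr at 12 h (-0.22 ± 0.05, adjusted p 0.00062). The Mtr call was lost without replicate 1 of the 12 h group from 2i/LIF (-0.17, adjusted p 0.06), which leaves 2 calls at 12 h in that fit. Ahcy was lower at 24 h (-0.35 ± 0.10, adjusted p 0.0025) and 40 h (-0.23 ± 0.09, adjusted p 0.039). Its 24 h call was lost without replicate 1 of 2i/LIF (adjusted p 0.076) or replicate 2 of serum/LIF+2i (0.1) at that time, and its 40 h call without replicate 1 of either medium (0.34 and 0.26).

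The higher Mtrr level at 40 h (0.19 ± 0.07, adjusted p 0.023) was lost without either library of 2i/LIF (adjusted p 0.072 and 0.13) or replicate 2 of serum/LIF+2i (0.17). The Cbs difference at 40 h was lost without replicate 1 of 2i/LIF (-0.24, adjusted p 0.2). DESeq2 called 2 of the 8 members at 40 h, beside 2010 of all 14288 genes.

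The exits of the 2 media differed for 1 of the 8 members at 12 h and for 4 at 24 h. At 12 h the difference between exits passed for Mtr (-0.25 ± 0.08, adjusted p 0.021), which fell further from serum/LIF+2i, and this was 0 higher and 1 lower of 8 beside 4.80% and 4.40% of all genes. At 24 h it passed for Mat2b (-0.22 ± 0.08, adjusted p 0.024), Mtrr (-0.29 ± 0.11, adjusted p 0.035), Amd1 (-0.43 ± 0.10, adjusted p 0.00075) and Cbs (0.32 ± 0.11, adjusted p 0.018). This was 1 higher and 3 lower of 8, beside 9.77% and 11.0%. The Amd1 difference kept its call without any single library and with DESeq2. The Mtr, Mat2b, Mtrr and Cbs differences were not called by DESeq2 (adjusted p 0.17, 0.15, 0.17 and 0.083). Each was also lost without single libraries, at adjusted p of 0.12 to 0.19 for Mtr, 0.076 to 0.21 for Mat2b, 0.061 to 0.18 for Mtrr and 0.071 to 0.17 for Cbs.

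The pathways that feed and drain the cycle were described with 7 lists of 53 genes, all in the table, of which 48 passed the filter. Below it were Mat1a, the adult liver enzyme of SAM synthesis, and Chdh, Sardh, Sqor and Hnmt. At 40 h from 2i/LIF, 22 of the 48 rose and 14 fell, beside 34.1% of all genes called higher and 34.7% lower. In the serum/LIF+2i set, 24 rose and 15 fell, beside 35.3% each way, and the medians of the 48 were 0.20 and 0.17. Before exit, 6 were higher and 15 lower in serum/LIF+2i than in 2i/LIF, beside 14.6% and 18.4% of all genes. At 40 h, 5 were higher and 16 lower, beside 13.9% and 13.4%.

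Of 6 tested genes of the methionine cycle outside the members, 3 rose and 0 fell from 2i/LIF at 40 h, and 5 rose and 0 fell from serum/LIF+2i. Ahcyl1, an Ahcy-like regulator of calcium channels, rose by 0.63 ± 0.06 (adjusted p 3.2e-19) and 0.53 ± 0.06 (adjusted p 6.2e-16). Mettl16, an RNA methyltransferase that controls Mat2a transcripts, rose by 0.67 ± 0.06 in both (adjusted p 5e-18 and 9.9e-21). Gnmt, which uses up surplus SAM by methylating glycine, had 4 counts over both libraries at 0 h in 2i/LIF and 104 at 40 h. From serum/LIF+2i it had 6 and 151 counts. Its rises are given with no test, since it passed the filter only through groups in which it was high. Both remain in all counts of genes called from its list. Ahcyl2 rose from serum/LIF+2i (0.35 ± 0.08, adjusted p 3.3e-05) and was at -0.13 ± 0.08 from 2i/LIF (adjusted p 0.13). The mitochondrial SAM carrier Slc25a26 passed in neither (adjusted p 0.36 and 0.84).

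Of 4 tested genes of betaine and choline oxidation, 2 rose and 2 fell in both media. The falls were Dmgdh, described above, and Slc44a1, a choline transporter, at -2.32 ± 0.09 (adjusted p 1.1e-50) and -2.57 ± 0.08 (adjusted p 1.6e-59). The rises, named after their values were seen, were Aldh7a1, which oxidises betaine aldehyde to betaine (0.88 and 0.61), and Pipox, a sarcosine oxidase (0.82 and 0.33). Of 6 genes of vitamin B12 handling, 3 rose and 2 fell from 2i/LIF, and 4 rose and 1 fell from serum/LIF+2i, where 3 to 5 were called with 1 library left out. Tcn2, the B12 carrier, changed by -1.68 ± 0.12 (adjusted p 1.6e-24) and -0.97 ± 0.12 (adjusted p 6.9e-12).

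Of 8 tested genes of transsulfuration and cysteine use, 2 rose and 2 fell from 2i/LIF, and 3 rose and 3 fell from serum/LIF+2i. Cdo1, which oxidises cysteine, changed by -3.78 ± 0.15 (adjusted p 1.2e-48) and -2.93 ± 0.16 (adjusted p 2.6e-35). Gss, glutathione synthetase, changed by -2.73 ± 0.07 (adjusted p 1.9e-64) and -2.29 ± 0.07 (adjusted p 1.6e-56). Both were also lower in serum/LIF+2i before exit, by -1.08 ± 0.10 for Cdo1 (adjusted p 8.3e-17) and -0.60 ± 0.06 for Gss (adjusted p 7.2e-17). Gclm, the modifier subunit of the enzyme before Gss, rose by 1.17 ± 0.06 (adjusted p 2.7e-37) and 1.01 ± 0.06 (adjusted p 2.6e-31).

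Of 10 genes of polyamine synthesis and breakdown, 5 rose and 2 fell in each medium. Among the genes named for the size of their change, those of synthesis rose: Odc1 by 1.44 ± 0.04 and 1.14 ± 0.04, Srm by 0.97 ± 0.05 and 1.07 ± 0.05, and Sms by 1.04 ± 0.10 and 0.53 ± 0.10 (largest adjusted p 3e-06). Sat1 and Smox, which break polyamines down, fell, and were named by the same rule. Outside it, Azin1 (0.40 and 0.29) and Oaz2 (0.51 and 0.63) also rose in both media (largest adjusted p 1.6e-06). Amd2 of synthesis was at 0.19 and 0.07, Paox, an oxidase of breakdown, at 0.50 and -0.13, and Oaz1 at 0.08 and -0.13. None of these was called in either medium. The Sat1 changes were -2.07 ± 0.12 and -2.07 ± 0.11 (adjusted p 9e-32 and 2.4e-32), and those of Smox were -2.13 ± 0.13 and -1.27 ± 0.12 (adjusted p 1.3e-31 and 1.7e-17). Of 5 genes of methionine salvage, which returns the sulfur left over from polyamine synthesis, 3 rose and 2 fell from 2i/LIF, and 0 rose and 4 fell from serum/LIF+2i. Enoph1 of that route fell in both, with -1.06 ± 0.07 (adjusted p 6.8e-28) and -1.40 ± 0.07 (adjusted p 6.6e-40).

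Of 9 tested methyltransferases that use SAM, 4 rose and 4 fell from 2i/LIF, and 5 rose and 3 fell from serum/LIF+2i. In the latter, 5 were called without replicate 2 of the 40 h group. Nnmt, which methylates nicotinamide, fell from 143 counts to 2 in cells from 2i/LIF, 88.6-fold lower (95% interval 24.1 to 738), and from 115 counts to 4 in cells from serum/LIF+2i, 46.3-fold lower (17.6 to 173). Gamt, which makes creatine, was at -1.34 ± 0.41 and -1.11 ± 0.43, with 20 and 23 counts over both libraries at 40 h. These are given with no test, since Gamt passed the filter through groups in which it was high. It remains in the counts of methyltransferases called. Its call was lost in both media without some single libraries, and from serum/LIF+2i also with DESeq2.

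**Figure D4:**
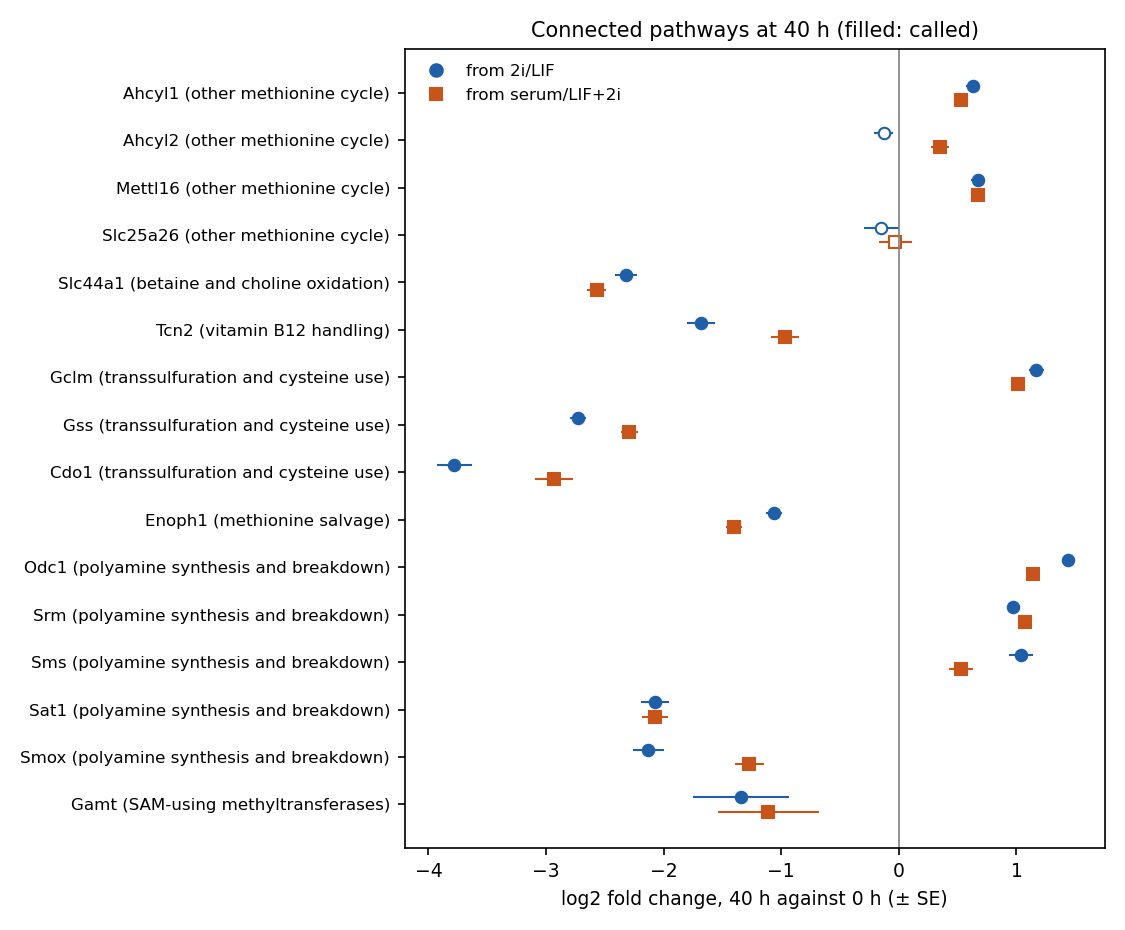
Log2 fold change (± SE) at 40 h against 0 h of the named genes from the connected pathways, with the list of each gene in parentheses, for cells from 2i/LIF (circles) and serum/LIF+2i (squares). Filled points were called at an adjusted p under 0.05. The Gamt points are a description only, because its 40 h groups held few counts. Dmgdh, Gnmt and Nnmt are left out because a group was at or near the floor. Cdo1 lies farthest to the left in both media, followed by Gss for cells from 2i/LIF and by Slc44a1 for cells from serum/LIF+2i.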

How the data were processed

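RNA was extracted with TRIzol and sequenced from poly(A) libraries made with a stranded kit, per the labels' protocols. The authors deposited whole-number counts per gene, not normalized, with an Entrez identifier, symbol and length for each of 27179 genes, of which 1049 had no symbol, per the file headers. Reads were processed with fastp, STAR and featureCounts on mm10, per the submitters' processing notes; versions, annotation and strand setting are not given in the sources used here. Groups and replicates follow the sample titles, which include 12 h samples for both media although the labels' protocol for serum/LIF+2i names only 24 and 40 h.

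Genes were kept with edgeR's filterByExpr (minimum count 10, minimum total 15), which left 14288. Library sizes were scaled by TMM, and all 16 libraries were fitted with 1 term per group (8 residual degrees of freedom, biological coefficient of variation 3.19%). Each of 13 comparisons used edgeR's quasi-likelihood F test (edgeR 4.0.16, R 4.3.3), robust and two-sided, with Benjamini-Hochberg adjustment over all genes kept; calls are at 0.05. Standard errors come from the F statistic. CPM and RPKM were computed from TMM-scaled totals and the deposited lengths, and log2 CPM used a prior count of 2. Folds against 0 counts are bounds at 3 counts per library, and intervals are exact at 95%. The fit was tested on simulated data.

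The members and the lists were chosen with earlier results of these data known. Named were all members, genes of the other methionine cycle list, list genes called with an absolute log2 fold change of at least 1 at 40 h or between media at 0 h, neighbours of the Bhmt genes, and the 3 genes most like Bhmt, Bhmt2 or up to 2 other members; some genes that the rule covers are not reported here. Replicate numbers did not pair libraries: over 28 pairs of groups, deviations correlated at -0.023 to 0.0331. Alternatives were DESeq2 1.42.0, other scalings and filters, a minimum fold change (glmTreat), fits of the compared groups only, a replicate block and leaving out each library. Sequences and positions are from RefSeq (GRCm38.p6) and GENCODE vM21, read with Python 3.11.15.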

Additional observations from a re-analysis of the deposited data

Results flagged for a closer look

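The response to exit differed between the media by the test of the difference itself (serum/LIF+2i minus 2i/LIF, edgeR quasi-likelihood test, adjusted over 14288 genes) for 1 of the 8 members counted at 12 h, for 4 at 24 h and for Dmgdh. Of all genes, 4.80% were called higher and 4.40% lower at 12 h, and 9.77% and 11.0% at 24 h. DESeq2 called 0 of these members at 12 h and 1, Amd1, at 24 h, beside 574 and 1789 of all 14288 genes. For Mtr at 12 h the difference was -0.25 on the log2 scale (adjusted p 0.021). For Mat2b at 24 h it was -0.22 (adjusted p 0.024), for Mtrr -0.29 (adjusted p 0.035), for Cbs 0.32 (adjusted p 0.018) and for Amd1 -0.43 (adjusted p 0.00075). For Dmgdh at 12 h it was -1.41 (adjusted p 0.00012). The Mtr, Mat2b, Mtrr and Cbs values lost their call without some single libraries.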

How the results depend on the processing

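Of 93 values of single members with a test, DESeq2's size factors kept the side of the threshold and the direction of 92, library size alone of 89, and no filter beyond 1 count of 91. The 93 include 5 values of Bhmt2, whose tests are not reported above, and those of Bhmt. Both genes passed the filter only through groups in which they were high. A mean of at least 5 CPM kept 80 of the 82 to which it gave a value, fits of the compared groups only 88 of 90, and DESeq2 82 of 92. The replicate block, which rests on numbers that pair no libraries, changed 0 of the 93, and the members called with the block numbered 5, 6, 8, 7 and 5 in the exits and 4, 4, 4 and 4 between media, as without it; it added a call of Mettl16 between media at 0 h (0.16, adjusted p 0.045). DESeq2 called 2 members between media at 40 h, beside 2010 of all 14288 genes. For the difference between exits at 12 and 24 h it called 0 and 1, beside 574 and 1789. With a minimum absolute log2 fold change of 1, the members called were 1 and 2 from 2i/LIF at 12 and 24 h, 1, 2 and 2 from serum/LIF+2i at 12, 24 and 40 h, 1, 1, 0 and 0 between media at 0, 12, 24 and 40 h, and 0 and 0 for the differences between exits. Bhmt was among the members called in each comparison that had any. Of all 14288 genes, that setting called, in the same order, 831 and 1768, then 1083, 2203 and 3114. Between media it called 166, 81, 75 and 44, and for the differences between exits 8 and 55. Leaving out 1 library changed which members were called between media at 12 and 40 h and for the differences between exits at 12 and 24 h.

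No value that changed sign was called in the reported fit. Mtrr from serum/LIF+2i at 40 h was 0.02 with DESeq2 and with its size factors, 0.07 with library size, 0.04 with the 5 CPM filter, 0.01 with the compared groups only, and -0.05 to 0.04 without 1 library. With library size, Amd1 there was 0.04 and Mat2b between media at 0 h 0.01, which the compared groups only also gave. Over the fits without 1 library, Mtrr at 24 h from 2i/LIF ranged from -0.07 to 0.01 and Amd1 at 12 h from -0.12 to 0.05. Between media, Mat2b ranged from -0.06 to 0.04 at 0 h and from -0.04 to 0.09 at 12 h, Mtr from -0.03 to 0.08 at 0 h, Amd1 from -0.14 to 0.03 at 12 h, Cbs from -0.04 to 0.11 at 24 h and Mat2a from -0.10 to 0.01 at 40 h. For the difference between exits at 12 h, Mat2b ranged from -0.03 to 0.09, Mat2a from -0.01 to 0.08, Ahcy from -0.15 to 0.04 and Cbs from -0.07 to 0.05, and Bhmt at 24 h from -2.91 to 0.08. The cause was not tested.

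For the pathway lists and their named genes, the same alternatives were added after seeing the data. With the minimum fold change, 11 list genes were called from 2i/LIF at 40 h (other methionine cycle 1, betaine 2, vitamin B12 1, salvage 0, polyamines 3, methyltransferases 1) and 10 from serum/LIF+2i (1, 2, 0, 1, 3 and 1, and transsulfuration 2). Of all 14288 genes, that setting called 3035 and 3114 in these comparisons. The 5 CPM filter left 5 methyltransferases called from serum/LIF+2i, where fewer are tested, and leaving out 1 library gave 5 to 8 of them and 3 to 5 of vitamin B12 handling. Slc25a26 at 40 h from serum/LIF+2i was 0.05 with library size, 0.01 with the 5 CPM filter and -0.20 to 0.16 without 1 library. Between media at 0 h, leaving out 1 library gave -0.29 to 0.07 for Slc25a26, -0.05 to 1.28 for Gnmt and -0.02 to 0.05 for Enoph1. Depth limits the Bhmt genes from 12 h on in cells from serum/LIF+2i, where counts per library are 5 or fewer, and from 24 h on in cells from 2i/LIF, where they are 8 or fewer.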
